A study of Homo sapiens with 4 samples.

Results

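The receptor tyrosine kinases EGFR, ERBB2, ERBB3, MET, FGFR1, FGFR2, PDGFRA, PDGFRB, AXL and KDR were followed through 4 RNA-seq libraries of HGC-27, a human gastric cancer cell line. They are a list of gene names, drawn up with earlier results of these data known, and are 10 of the 31907 gene names counted in the libraries. The 2 control libraries came from cells given PBS, and the other 2 from cells given recombinant IL-17B (rIL-17B) at 200 ng/ml. All 4 were collected at 48 h. The question set by this design is whether the transcripts of these receptors differ between cells given rIL-17B and cells given PBS. IL-17B is a cytokine of the IL-17 family, and its receptor IL-17RB is not a kinase. The labels give the same cell line for both groups, with no genetic change. The labels number the replicates but do not say whether they were separate cultures, so p-values measure only the spread between these libraries, which may be technical. The library protocol in the labels speaks of monocytes, whereas the cell line field gives HGC-27.

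Receptor tyrosine kinases are membrane proteins that bind a ligand outside the cell, pair with another receptor and phosphorylate each other on tyrosine. Adaptor proteins then dock on the phosphotyrosines and pass the signal through RAS, RAF, MEK and ERK, through PI3K and AKT, or through phospholipase C. In gastric cancer, ERBB2, EGFR, MET and FGFR2 are known from gene amplification in part of the tumours, while PDGFRA, PDGFRB and KDR are best known from fibroblasts, pericytes and endothelial cells.

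The sequence just upstream of the start site is shown for 3 of the 4 receptors that were at least 2-fold below both PBS libraries in rIL-17B replicate 1, PDGFRA and KDR from chromosome 4 and PDGFRB from chromosome 5 (the fourth, FGFR1, had no entry), and for the pair that were higher in both rIL-17B libraries, MET and FGFR2. The sequences are from RefSeq on GRCh38.p14, written 5′ to 3′ on the gene's own strand. Each run of 120 bases ends at the RefSeq start or before the first exon annotated by GENCODE 29, whichever lies further upstream. Capitals mark the GC box, searched as GGGCGG and, for the other strand, CCGCCC, which are the letters bound by SP1-type factors. For PDGFRA the run lies before the second RefSeq start, 4863 bp downstream of the start of the GENCODE gene and inside it, in a stretch without an annotated exon. The 250 bases before the first RefSeq start of PDGFRA, which overlap an exon and are not shown, held 0 GC boxes.
KDR, chr4:55125596-55125715, minus strand: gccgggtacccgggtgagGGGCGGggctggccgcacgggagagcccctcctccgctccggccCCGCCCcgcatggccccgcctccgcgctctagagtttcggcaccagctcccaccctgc
PDGFRA, chr4:54233840-54233959, plus strand: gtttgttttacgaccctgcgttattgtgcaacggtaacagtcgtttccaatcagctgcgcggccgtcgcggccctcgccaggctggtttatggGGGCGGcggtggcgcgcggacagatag
PDGFRB, chr5:150155873-150155992, minus strand: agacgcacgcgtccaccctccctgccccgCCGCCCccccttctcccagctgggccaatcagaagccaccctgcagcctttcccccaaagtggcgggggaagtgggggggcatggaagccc
MET, chr7:116672076-116672195, plus strand: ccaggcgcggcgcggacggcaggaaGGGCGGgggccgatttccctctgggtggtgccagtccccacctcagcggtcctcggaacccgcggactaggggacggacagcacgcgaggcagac
FGFR2, chr10:121598459-121598578, minus strand: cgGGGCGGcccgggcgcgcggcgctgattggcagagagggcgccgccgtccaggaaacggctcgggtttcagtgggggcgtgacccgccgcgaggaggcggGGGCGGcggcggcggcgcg

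Each of these 5 runs held at least 1 GC box, and those of KDR and FGFR2 held 2. FGFR2 has further RefSeq starts, which are not shown. The run before the start 4200 bp from the GENCODE start held 1 GC box. Those before the starts at 1813, 4491 and 67144 bp held 0. For FGFR2 and PDGFRA the number of GC boxes thus depends on the start shown. Over all 35116 RefSeq promoters in the table, 34.0% had a GC box in the 120 bases before the start. G and C made up 81.7% of the FGFR2 run and 61.7% of the PDGFRA run, against a median of 60% over all promoters. CpG pairs numbered 23 in FGFR2, 15 in PDGFRA, 14 in MET, 13 in KDR and 6 in PDGFRB, against a median of 6. The GC box was thus found in receptors lower with rIL-17B as well as in those higher. Of the 10 receptors, 8 matched an entry of the promoter table, and FGFR1 and ERBB3 did not.

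Library totals ran from 12888029 to 17555879 counts, so that 3 counts, taken as the upper limit that a count of 0 allows, corresponded to 0.171 to 0.233 CPM (the count divided by the library total, times 1000000). Gene positions are those of GENCODE 29 on GRCh38. Intervals and floors cover counting error only, since reads copied from one molecule by PCR are not independent. The replicates did not resemble each other equally. Of 16361 genes tested, 104 differed at least 2-fold between the PBS libraries, with 0.5 CPM added to each value, and 2771 differed between the rIL-17B libraries. rIL-17B replicate 1 stood apart, with 3464 and 3609 genes 2-fold from the PBS libraries against 78 and 292 for rIL-17B replicate 2. The receptor results are therefore given with and without rIL-17B replicate 1. In that library the treatment cannot be told apart from any difference in the cells or the sample itself.

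Marker genes moved with this library. The 12 mesenchymal and fibroblast markers summed to 53689 and 52452 CPM with PBS, 44883 CPM in rIL-17B replicate 2 and 1033 CPM in replicate 1, and 0 of the 12 were at 0 in any library. Fibronectin FN1 led that list, followed by the collagens COL1A1 and COL1A2, and COL1A2 had 5516 and 5248 CPM with PBS, 4699 in rIL-17B replicate 2 and 1.09 in replicate 1. The 10 epithelial markers, led by the keratins KRT8, KRT7 and KRT18, summed to 995 and 989 CPM with PBS, 2219 CPM in rIL-17B replicate 1 and 1246 CPM in replicate 2. The epithelial cadherin CDH1, named after its values were seen, had between 7 and 11 counts, and the gastric trefoil gene TFF1 had 0 counts in all 4 libraries. The 10 gastric markers, led by GATA6, CDX2 and GATA4, summed to 22.6 and 20.9 CPM with PBS, 8.07 CPM in rIL-17B replicate 1 and 18.2 CPM in replicate 2. GATA6 was at 1.57 CPM and GATA4 at 0 in replicate 1, where CDX2 had 3.69 CPM against 1.95 and 2.02 CPM with PBS. The 8 endothelial markers summed to 24.6 and 28.2 CPM with PBS, 23.1 CPM in rIL-17B replicate 2 and 1.44 CPM in replicate 1. The 10 monocyte markers summed to 13.5 and 14.4 CPM with PBS, 8.62 CPM in rIL-17B replicate 1 and 13.7 CPM in replicate 2. In replicate 1 the receptor CSF1R made up 8.14 of the 8.62 CPM, and 6 of the 10 were at 0, LYZ, PTPRC, ITGAM, FCGR3A, S100A9 and TYROBP. The 10 glial markers, led by CSPG4, OLIG1 and OLIG2, summed to 239 and 343 CPM with PBS, 130 CPM in rIL-17B replicate 1 and 200 CPM in replicate 2, and 5 of the 10, OLIG1 and OLIG2 among them, were at 0 in rIL-17B replicate 1. Their part in the receptor levels was not tested.

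With PBS, all 10 receptors had at least 11 counts in each library. Their order is given by CPM per kb of exon, a scale on which genes of different length can be compared. MET, the receptor of hepatocyte growth factor, was highest at 27.5 ± 2.23 CPM per kb (mean ± SD, n = 2). PDGFRB followed at 24.2 ± 1.43 CPM per kb, AXL at 20.9 ± 0.968, PDGFRA at 16.3 ± 0.782 and EGFR at 14.1 ± 1.72 CPM per kb. A second tier held FGFR1 at 6.75 ± 0.330, ERBB2 at 6.33 ± 0.505 and FGFR2 at 4.73 ± 0.0722 CPM per kb. KDR had 1.68 ± 0.436 CPM per kb and ERBB3 0.103 ± 0.0119 CPM per kb. Only FGFR1 and ERBB2 could not be placed in order, since their PBS values overlapped. With the longest transcript in place of all exons as the length, the PBS values of MET and PDGFRB overlapped, and so did those of AXL and PDGFRA.

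MET gave 24.0% and 20.9% of the summed CPM per kb of the 10 receptors with PBS, 27.6% in rIL-17B replicate 2 and 53.5% in replicate 1. The PDGFRA and PDGFRB pair gave 32.2% and 33.9% with PBS, 28.8% in rIL-17B replicate 2 and 5.08% in replicate 1. The sum itself was 121 and 124 CPM per kb with PBS, 94.1 in rIL-17B replicate 1 and 116 in replicate 2.

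Between the treatments, 6 receptors had both rIL-17B libraries below both PBS libraries, and 2 had both above. The 6 were EGFR, ERBB3, FGFR1, PDGFRA, PDGFRB and KDR, and the 2 were MET and FGFR2. Over all genes tested, 27.5% were below and 31.5% above both PBS libraries in both rIL-17B libraries. With rIL-17B replicate 2 alone, the same 6 receptors were below and the same 2 above both PBS libraries, where 36.1% of all genes were below and 37% above. The counts of 6 and 2 were the same with TMM-scaled and upper-quartile-scaled library sizes, but the shares of all genes moved. For both rIL-17B libraries, 30.3% of all genes were below and 28.6% above with TMM scaling. With upper-quartile scaling, 31.4% were below and 27.2% above.

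None of the 10 receptors was called, that is, none reached a Benjamini-Hochberg-adjusted p below 0.05 by the quasi-likelihood F test of edgeR, and 0% of the 16361 genes were called. DESeq2 also called 0 genes after adjustment. At an unadjusted p under 0.05, edgeR had 226 genes, which is 1.38%, and 0 receptors. At the same unadjusted threshold DESeq2 had 457 genes and 2 receptors, EGFR and FGFR2, and the edgeR fit of every gene with a count had the same 2 receptors. The smallest two-sided p that an exact permutation test allows with 2 libraries a group is 0.333. Without rIL-17B replicate 1, EGFR, PDGFRA and KDR were called lower, where 2.3% of genes were called lower and 0.643% higher. That fit has 1 rIL-17B library, which is assumed to vary like the PBS pair. Without rIL-17B replicate 2, 6 receptors were called lower and 2 higher, where 31.9% of genes were called lower and 23.2% higher. A difference in size was also counted. In rIL-17B replicate 1, 4 receptors were at least 2-fold below both PBS libraries (19.3% of all genes) and 1 was at least 2-fold above (2.54%). In rIL-17B replicate 2, 1 receptor was at least 2-fold below (1.05%) and 0 were 2-fold above (0.244%). In such bulk libraries, fewer cells of a type and less RNA per cell cannot be told apart.

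**Figure D1:**
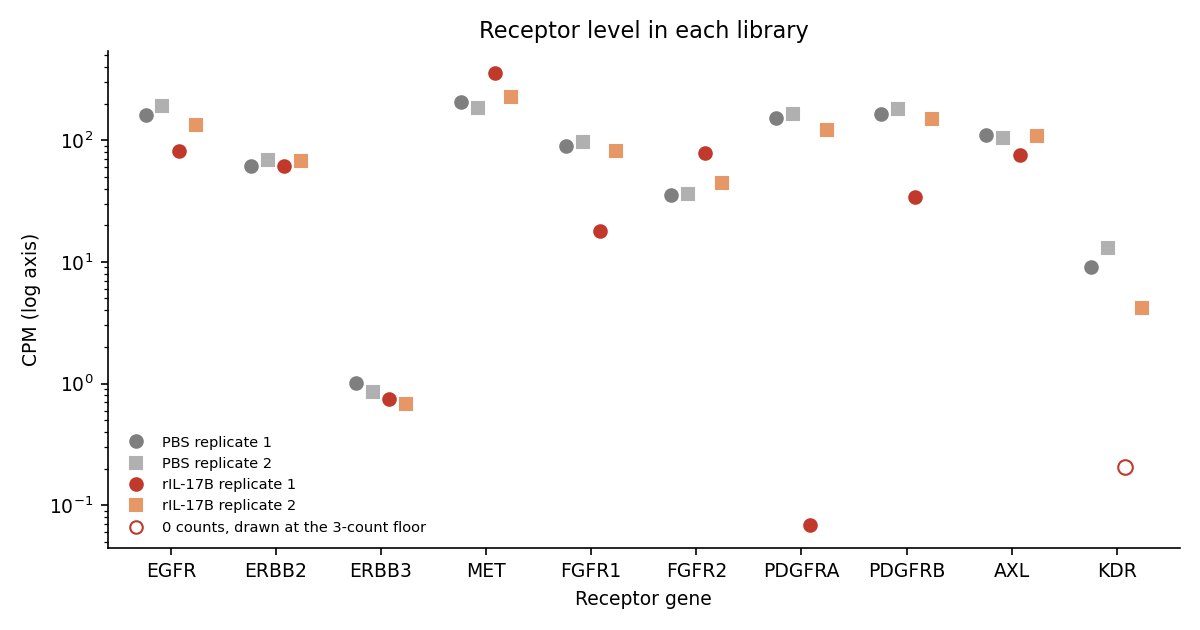
CPM of each receptor in each library on a log axis, with circles for replicate 1 and squares for replicate 2 (grey for PBS, red and orange for rIL-17B). The open circle is KDR in rIL-17B replicate 1, which had 0 counts and is drawn at its upper limit of 3 counts, and PDGFRA in the same library is drawn at its 1 count, 0.0684 CPM, so these symbols cannot be ranked.

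The lowest values in rIL-17B replicate 1 were those of PDGFRA and KDR, which with PDGFRB make up the PDGF and VEGF receptors among the 10. PDGFRA, the receptor of PDGF-A and PDGF-C among others, had 2440 and 2116 counts with PBS, 1 count in rIL-17B replicate 1 and 2113 counts in replicate 2. These counts were 153 and 164 CPM with PBS, 0.0684 CPM in rIL-17B replicate 1 and 120 CPM in replicate 2. Both rIL-17B libraries lay below both PBS libraries, and replicate 1 held a single read. The single count puts replicate 1 2321-fold below the PBS mean, with a 95% exact Poisson interval of 417-fold to 91671-fold, and replicate 2 was 1.32-fold below it. Over 4 libraries the log2 fold change was -1.40 ± 2.32 (SE), at a Benjamini-Hochberg-adjusted p of 0.762 by the quasi-likelihood F test of edgeR. In the fit lacking rIL-17B replicate 1 it was -0.40 ± 0.09, with an adjusted p of 9.36e-04 in the same edgeR test.

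KDR, the main VEGF receptor of endothelial cells, had 143 and 168 counts with PBS, 0 counts in rIL-17B replicate 1 and 74 counts in replicate 2. Its CPM was 8.99 and 13 with PBS, 0 in rIL-17B replicate 1 and 4.22 in replicate 2. KDR had the widest spread of the 10 receptors between the PBS libraries, 1.45-fold, and both rIL-17B libraries still lay below both. Replicate 1 was at least 53.7-fold below the PBS mean, with the floor of 3 counts in that library, and replicate 2 was 2.61-fold below it (exact Poisson interval of its count, 2.08 to 3.33). Its log2 fold change was -2.38 ± 1.96 over 4 libraries, at a Benjamini-Hochberg-adjusted p of 0.662 by the quasi-likelihood F test of edgeR, and -1.38 ± 0.23 without rIL-17B replicate 1, with an adjusted p of 1.00e-06 in the same test. KDR was the only receptor at least 2-fold below both PBS libraries in rIL-17B replicate 2.

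Beside KDR, the endothelial receptor TEK had 85 and 65 counts with PBS, 1 in rIL-17B replicate 1 and 68 in replicate 2. Of the 8 endothelial markers, 4 were below both PBS libraries in both rIL-17B libraries, TEK, TIE1, CLDN5 and ERG, and the other 4 overlapped. Over all genes tested, 27.5% were below and 31.5% above. TIE1 had 3 and 2 counts with PBS against 1 and 0 with rIL-17B. ERG had 6 and 3 counts with PBS against 3 and 3 with rIL-17B, and both genes had too few to be tested. PECAM1 was one of those that overlapped, with 5.03 and 5.28 CPM with PBS, 0.411 in rIL-17B replicate 1 and 5.41 in replicate 2. Of the 10 glial markers, 6 were below, 1 was above and 3 overlapped. SOX10, which overlapped, and GFAP, which was below, were not tested, whereas the shares are over tested genes. OLIG1 was below, with 46.3 and 71.1 CPM with PBS, 0 CPM in rIL-17B replicate 1 and 27.7 CPM in replicate 2. The myelin gene MBP was above, with 19.2 and 17 CPM with PBS against 29.4 and 20.5 CPM with rIL-17B. TEK, PECAM1 and MBP were named after their values were seen. The part of other cell types in the level of KDR was not tested.

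PDGFRB (chr5:150113837-150155872), the PDGF-B receptor of pericytes and fibroblasts, had 2633 and 2319 counts with PBS, 498 in rIL-17B replicate 1 and 2643 in replicate 2. In CPM these were 166 and 180 with PBS, 34.1 in rIL-17B replicate 1 and 151 in replicate 2. Both rIL-17B libraries were below both PBS libraries, replicate 1 5.07-fold below the PBS mean and replicate 2 1.15-fold. The log2 fold change was -0.93 ± 0.82, at a Benjamini-Hochberg-adjusted p of 0.665 by the quasi-likelihood F test of edgeR, and -0.20 ± 0.09 without rIL-17B replicate 1, which was not called either (adjusted p of 0.251 in edgeR). Per kb of exon, the ratio of PDGFRB to PDGFRA was 1.47 and 1.49 with PBS and 1.71 in rIL-17B replicate 2. No ratio is given for rIL-17B replicate 1, where PDGFRB had 498 counts and PDGFRA 1.

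PDGFRA (chr4:54229097-54298247) and KDR (chr4:55078259-55125595) lie on 4q12, with KIT between them. KIT had 8 and 3 counts with PBS, 1 in rIL-17B replicate 1 and 7 in replicate 2, too few to be tested. Of 8 neighbours listed, 6 were tested and 0 called, and 2 were below both PBS libraries in both rIL-17B libraries. CHIC2 was one of these, with 14.5 and 15.0 CPM with PBS, 3.56 in rIL-17B replicate 1 and 13 in replicate 2. TMEM165, the highest of the neighbours by CPM per kb, had 101 and 92.5 CPM with PBS, 79.5 in rIL-17B replicate 1 and 94.4 in replicate 2. FIP1L1, named after its values were seen, had 11.8 and 11.5 CPM with PBS against 11.5 and 11.6 CPM with rIL-17B. All 6 tested neighbours had at least 34 counts in the library in which PDGFRA had 1 and KDR 0. The untested neighbours KIT and GSX2 had 1 and 0 counts there, and GSX2 had 1 count in each PBS library.

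**Figure D2:**
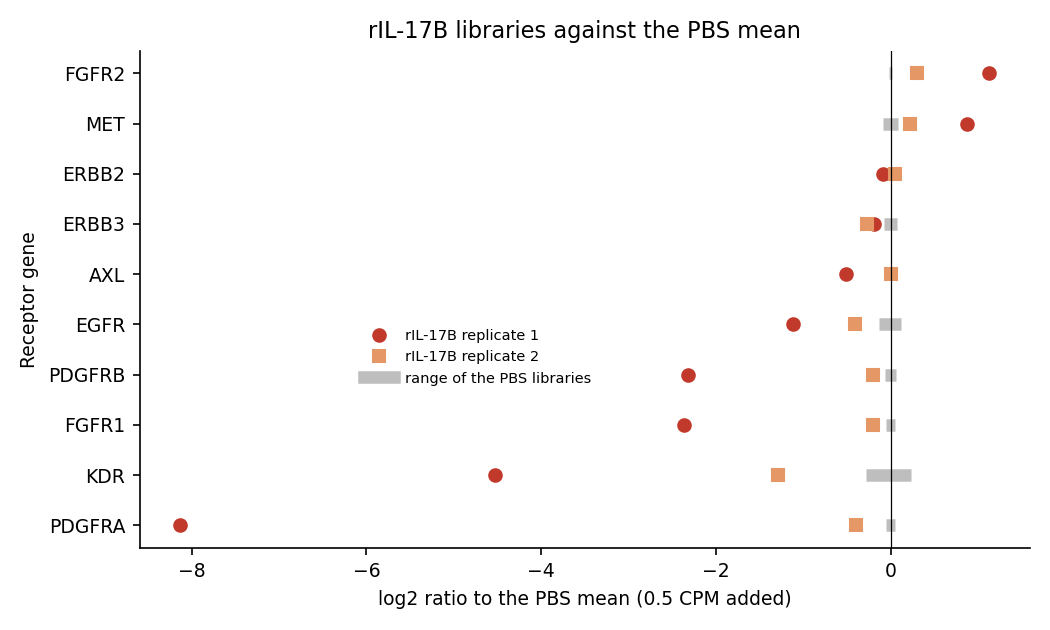
log2 ratio of CPM to the PBS mean, with 0.5 CPM added to each value, for each receptor in rIL-17B replicate 1 (red circles) and replicate 2 (orange squares). Grey bars span the PBS libraries, and in 8 of the 10 receptors both symbols lie outside the grey bar on the same side.

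The fibroblast growth factor receptors lay on opposite sides of their PBS values. FGFR1 (chr8:38400215-38468834) had 1435 and 1246 counts with PBS, 260 in rIL-17B replicate 1 and 1424 in replicate 2, which is 90.2 and 96.7 CPM against 17.8 and 81.1 CPM. FGFR2 (chr10:121478334-121598458) had 564 and 467 counts with PBS, 1154 in rIL-17B replicate 1 and 779 in replicate 2, which is 35.5 and 36.2 CPM against 79.0 and 44.4 CPM. Neither receptor's groups overlapped, FGFR1 being lower and FGFR2 higher in both rIL-17B libraries. Replicate 1 was 5.25-fold below the PBS mean in FGFR1 and 2.2-fold above it in FGFR2, and replicate 2 was 1.15-fold below and 1.24-fold above.

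The log2 fold change was -0.94 ± 0.83 for FGFR1, at a Benjamini-Hochberg-adjusted p of 0.665, and 0.69 ± 0.28 for FGFR2, at one of 0.661, both by the quasi-likelihood F test of edgeR. Leaving out rIL-17B replicate 1, these were -0.21 ± 0.10 and 0.30 ± 0.11, with adjusted p of 0.288 and 0.144 in edgeR. Per kb of exon, the FGFR1 to FGFR2 ratio was 1.39 and 1.46 with PBS, 0.123 in rIL-17B replicate 1 and 1.00 in replicate 2, so both rIL-17B ratios lay below both PBS ratios. With the longest transcript as the length the ratios were 1.79 and 1.88 with PBS, 0.158 in rIL-17B replicate 1 and 1.28 in replicate 2. The sum of the pair per kb of exon was 11.2 and 11.8 CPM with PBS and 11.7 CPM in each rIL-17B library. This depended on the length used. With the longest transcript, the sum in rIL-17B replicate 1 lay below both PBS sums, and that in replicate 2 lay between them. FGFR1 shares 294 exonic bases with other counted genes, so its count is uncertain to that extent, whereas FGFR2 shares none.

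MET (chr7:116672390-116798386) had 3255 and 2352 counts with PBS, 5182 in rIL-17B replicate 1 and 3968 in replicate 2. The CPM was 205 and 182 with PBS, 355 in rIL-17B replicate 1 and 226 in replicate 2. Both rIL-17B libraries were higher than both PBS libraries, replicate 1 by 1.83-fold over the PBS mean and replicate 2 by 1.17-fold. The PBS libraries differed from each other by 1.12-fold. The step from the higher PBS library to replicate 2 was smaller than the step between the PBS libraries. In the fit the log2 fold change was 0.50 ± 0.23, at a Benjamini-Hochberg-adjusted p of 0.661 by the quasi-likelihood F test of edgeR, and 0.22 ± 0.09 without rIL-17B replicate 1, with an adjusted p of 0.170 in edgeR. Of the 10 epithelial markers, 4 were above both PBS libraries in both rIL-17B libraries, KRT7, KRT8, KRT18 and EPCAM, while CLDN4 was below and 5 overlapped. Over all genes tested, 31.5% were above and 27.5% below. The markers CDH1, KRT20, ESRP1 and GRHL2 had too few counts to be tested and all overlapped. The 4 of 10 therefore cannot be set directly against the share of tested genes. KRT8 had 601 and 611 CPM with PBS, 1457 in rIL-17B replicate 1 and 787 in replicate 2. KRT19 had 2.96 and 3.34 CPM with PBS, 0.0684 in rIL-17B replicate 1 and 3.30 in replicate 2.

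AXL (chr19:41219203-41261766), the receptor of GAS6, had 1772 and 1345 counts with PBS, 1107 in rIL-17B replicate 1 and 1900 in replicate 2, or 111 and 104 CPM against 75.7 and 108 CPM. Replicate 1 was 1.42-fold below the PBS mean, and replicate 2 lay between the PBS libraries, so the groups overlapped. For AXL the log2 fold change was -0.29 ± 0.26 at a Benjamini-Hochberg-adjusted p of 0.667 by the quasi-likelihood F test of edgeR, and -0.00 ± 0.09 without rIL-17B replicate 1. AXL shares 67 exonic bases with a counted gene on the other strand.

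Among the ERBB receptors, only EGFR was called without rIL-17B replicate 1. EGFR (chr7:55019021-55211628), which binds EGF and TGF-alpha, had 2560 and 2467 counts with PBS, 1187 in rIL-17B replicate 1 and 2321 in replicate 2. Its CPM was 161 and 191 with PBS, 81.2 in rIL-17B replicate 1 and 132 in replicate 2, so that both rIL-17B libraries were lower than both PBS libraries. Replicate 1 was 2.17-fold and replicate 2 1.33-fold below the PBS mean, and the PBS libraries differed from each other by 1.19-fold. In CPM, the step from the lower PBS library to replicate 2 was slightly smaller than the step between the PBS libraries. The log2 fold change was -0.78 ± 0.33 at a Benjamini-Hochberg-adjusted p of 0.661 by the quasi-likelihood F test of edgeR, and -0.42 ± 0.09 without rIL-17B replicate 1, with an adjusted p of 4.75e-04 in edgeR. EGFR shares 186 exonic bases with the counted antisense gene EGFR-AS1.

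ERBB2 (chr17:39687914-39730426), the partner receptor that binds no ligand of its own, had overlapping groups. Its counts were 981 and 890 with PBS, 897 in rIL-17B replicate 1 and 1192 in replicate 2, or 61.7 and 69.1 CPM against 61.4 and 67.9 CPM. The log2 fold change was -0.08 ± 0.15 at a Benjamini-Hochberg-adjusted p of 0.776 by the quasi-likelihood F test of edgeR. Its sign turned to 0.054 ± 0.10 without rIL-17B replicate 1, with an adjusted p of 0.890 in edgeR. The ERBB2 exons share 765 bases with MIEN1 and PGAP3 on the other strand, and whether strand was used in counting is not given in the sources used here. Per kb of exon, the EGFR to ERBB2 ratio was 2.15 and 2.28 with PBS, 1.09 in rIL-17B replicate 1 and 1.61 in replicate 2.

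ERBB3 (chr12:56076799-56103505), the neuregulin receptor that pairs with ERBB2 and has little kinase activity of its own, had the fewest counts with PBS. It had 16 and 11 counts with PBS against 11 and 12 counts with rIL-17B, or 1.01 and 0.854 CPM against 0.753 and 0.684 CPM. Both rIL-17B values were lower, but the exact Poisson interval of PBS replicate 2, 0.426 to 1.53 CPM, held both. Its log2 fold change was -0.44 ± 0.41 at a Benjamini-Hochberg-adjusted p of 0.669 by the quasi-likelihood F test of edgeR. It was -0.45 ± 0.74 without rIL-17B replicate 1, with an adjusted p of 0.868 in edgeR.

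**Figure D3:**
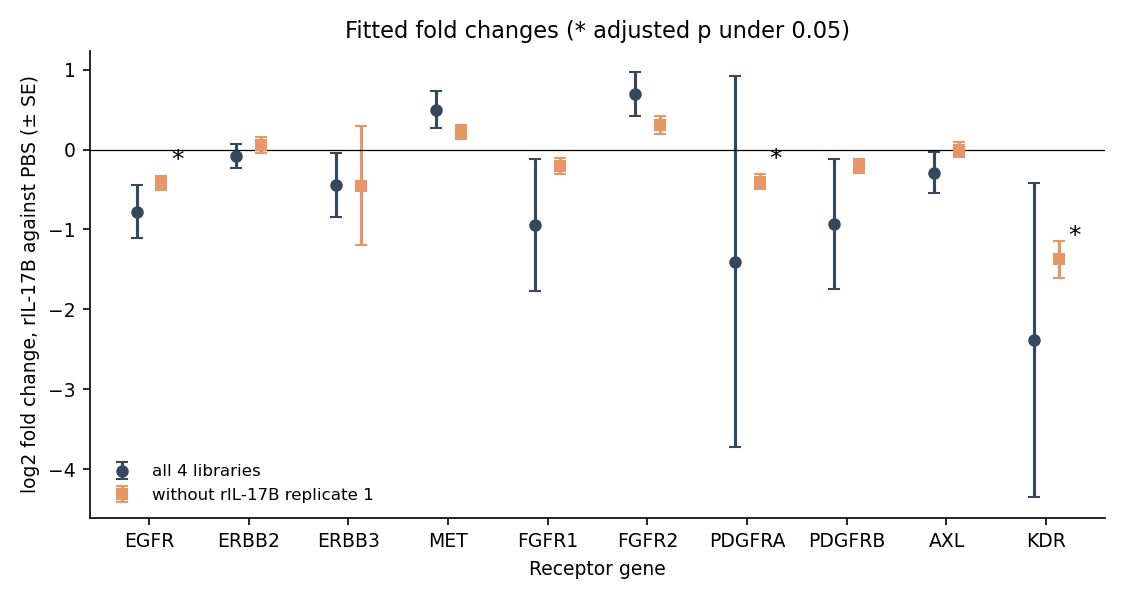
log2 fold change of each receptor, rIL-17B against PBS, from edgeR with bars of ± 1 SE, over all 4 libraries (dark circles) and without rIL-17B replicate 1 (orange squares). Stars mark an adjusted p under 0.05, reached by EGFR, PDGFRA and KDR in the fit without that library and by no receptor in the fit of all 4.

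The other receptor tyrosine kinases were listed as 32 genes, of which 23 were tested and 0 called. The log2 fold change was positive in 10 and negative in 13, with a median of -0.33, against -0.03 over all 16361 genes and -0.61 over the 10 receptors. The collagen receptors DDR2 and DDR1 were the highest by CPM per kb, DDR2 with 354 and 332 CPM with PBS, 191 in rIL-17B replicate 1 and 323 in replicate 2. The smallest p belonged to the Wnt5a receptor ROR2, with 35.1 and 34.8 CPM with PBS, 72.7 in rIL-17B replicate 1 and 42.9 in replicate 2, and to AATK, with 3.08 and 3.80 CPM with PBS, 0.889 in rIL-17B replicate 1 and 1.94 in replicate 2. MERTK, a relative of AXL that also binds GAS6, was the only one called without rIL-17B replicate 1. MERTK had 76 and 72 counts with PBS, 3 in rIL-17B replicate 1 and 44 in replicate 2, and the log2 fold change in that fit was -1.04 ± 0.31 with an adjusted p of 0.0355 in edgeR.

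For each receptor the most similar of these 23 was found by the Euclidean distance of their log2 ratios to the PBS mean over the 4 libraries. The closest pair was FGFR2 with ROR2, at a distance of 0.0880, with ratios of 1.13 and 1.05 in rIL-17B replicate 1 and 0.30 and 0.29 in replicate 2. MET was nearest to FGFR3 at 0.203. RYK was nearest to ERBB3, AXL and ERBB2, at 0.207, 0.278 and 0.294. EGFR was nearest to NTRK2 at 0.477, and PDGFRB and FGFR1 were both nearest to ROR1, at 0.518 and 0.549. KDR and PDGFRA were both nearest to the neurotrophin receptor NTRK3, but at 0.846 and 3.55. NTRK3 had 133 and 196 counts with PBS, 0 in rIL-17B replicate 1 and 146 in replicate 2. All genes of a library share its depth, so these distances describe the 4 libraries only.

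Of 10 ligands of the ERBB receptors tested, 0 were called, and the median log2 fold change was -1.08. Both rIL-17B libraries were below both PBS libraries in 7 of them and above in 1, against 27.5% and 31.5% of all genes, the shares against which the same counts of the lists that follow are to be read. The ligand HBEGF had 14.1 and 13.9 CPM with PBS, 10.3 in rIL-17B replicate 1 and 11.4 in replicate 2. TGFA, a ligand of EGFR, had 8.17 and 10.8 CPM with PBS, 1.09 in rIL-17B replicate 1 and 4.67 in replicate 2. TGFA was the only ERBB ligand called without rIL-17B replicate 1, at a log2 fold change of -1.01 ± 0.23 with an adjusted p of 0.00171 in edgeR. EPGN had 4.84 and 4.27 CPM with PBS against 5.75 and 4.56 CPM with rIL-17B.

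Of 18 FGF ligands listed, 5 were tested, 3 of them below both PBS libraries in both rIL-17B libraries and 0 called, with a median log2 fold change of -1.29. FGF2 was the highest, at 119 and 102 CPM with PBS, 53.5 in rIL-17B replicate 1 and 104 in replicate 2. FGF18 had 4.4 and 3.80 CPM with PBS, 7.39 in rIL-17B replicate 1 and 4.33 in replicate 2. FGF1, which binds all FGF receptors, had 141 and 143 counts with PBS, 0 in rIL-17B replicate 1 and 94 in replicate 2, and was called lower without rIL-17B replicate 1 (log2 fold change -0.89 ± 0.22, adjusted p of 0.00549 in edgeR).

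The 9 PDGF and VEGF ligands had a median log2 fold change of -0.81, with 4 below and 2 above both PBS libraries in both rIL-17B libraries and 0 called with or without rIL-17B replicate 1. VEGFA, which binds KDR, had 304 and 293 CPM with PBS, 61.2 in rIL-17B replicate 1 and 276 in replicate 2. VEGFB had 60.7 and 58.4 CPM with PBS, 44.7 in rIL-17B replicate 1 and 59.0 in replicate 2. PDGFD was higher in both, with 3.33 and 3.34 CPM with PBS, 5.13 in rIL-17B replicate 1 and 4.27 in replicate 2, and VEGFD had between 3 and 17 counts. The VEGF co-receptors NRP1 and NRP2 each lay below both PBS libraries in both rIL-17B libraries. NRP2 had 172 and 200 CPM with PBS, 12 in rIL-17B replicate 1 and 146 in replicate 2, and was called lower without rIL-17B replicate 1 (log2 fold change -0.35 ± 0.09, adjusted p of 0.00543 in edgeR).

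Of the 3 ligands of MET and AXL, 0 were called with all 4 libraries. GAS6, the AXL ligand, was the most abundant of them at 7325 and 5554 counts with PBS, 91 in rIL-17B replicate 1 and 6533 in replicate 2. In CPM these were 461 and 431 with PBS, 6.23 in rIL-17B replicate 1 and 372 in replicate 2. Its log2 fold change without rIL-17B replicate 1 was -0.26 ± 0.08, with an adjusted p of 0.0494 in edgeR. AXL itself was 1.42-fold below the PBS mean in rIL-17B replicate 1. The MET ligand HGF had 5.28 and 4.66 CPM with PBS against 5.20 and 4.96 CPM with rIL-17B, and PROS1, which binds MERTK and TYRO3, had 42.3 and 41.8 CPM with PBS against 38.5 and 44.7 CPM with rIL-17B.

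The adaptors that dock on the receptors numbered 21 tested genes, with 0 called, 11 below and 5 above both PBS libraries in both rIL-17B libraries and a median log2 fold change of -0.26. GRB2, which links receptors to the RAS activator SOS, had 109 and 116 CPM with PBS, 147 in rIL-17B replicate 1 and 131 in replicate 2. PLCG1, the phospholipase C recruited by several receptors, had 117 and 140 CPM with PBS, 85.9 in rIL-17B replicate 1 and 106 in replicate 2. SHC1 and the phosphatase PTPN11 were the highest, SHC1 at 149 to 201 CPM and PTPN11 at 261 to 351 CPM. GRB10, SHC2 and SHC3 were called lower without rIL-17B replicate 1. SHC3 had 430 and 497 counts with PBS, 9 in rIL-17B replicate 1 and 349 in replicate 2.

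The core of the cascade, RAS, RAF, MEK and ERK, had 8 positive and 3 negative log2 fold changes among 11 tested genes, a median of 0.07 and 0 called in either fit. Of the 11, 7 were above and 1 was below both PBS libraries in both rIL-17B libraries. HRAS had 28.5 and 27.9 CPM with PBS, 42.6 in rIL-17B replicate 1 and 32.5 in replicate 2. ARAF had 65.1 and 68.0 CPM with PBS, 90.5 in rIL-17B replicate 1 and 74.2 in replicate 2. MAP2K2, a MEK kinase, had 168 and 175 CPM with PBS against 193 and 177 CPM with rIL-17B.

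Genes that are transcribed downstream of ERK are used as a readout of the pathway. All 10 listed genes were tested and 0 were called. Of these, 10 of 10 lay below both PBS libraries in both rIL-17B libraries, where 27.5% of all genes did. The list was chosen with earlier results of these data known, and its genes cannot be counted as 10 independent observations. The count was the same with TMM-scaled and upper-quartile-scaled library sizes, where 30.3% and 31.4% of all genes were below. Their median log2 fold change was -1.27, and their median log2 ratio to the PBS mean was -2.61 for rIL-17B replicate 1 and -0.53 for replicate 2. With all 4 libraries ETV4 alone had an unadjusted p under 0.05. Without rIL-17B replicate 1, 7 of the 10 were called lower and 0 higher, where 2.3% of all genes were called lower and 0.643% higher.

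ETV4, an ETS transcription factor, had 11.0 and 15.1 CPM with PBS, 6.09 in rIL-17B replicate 1 and 7.80 in replicate 2. DUSP4, a phosphatase that acts back on MAP kinases, had 53.9 and 80.0 CPM with PBS, 18.3 in rIL-17B replicate 1 and 42.2 in replicate 2. DUSP6, the ERK phosphatase, had 1030 and 1187 counts with PBS, 9 in rIL-17B replicate 1 and 871 in replicate 2. In the fit without rIL-17B replicate 1, the log2 fold changes were -0.74 ± 0.20 for ETV4, -0.66 ± 0.11 for DUSP4 and -0.66 ± 0.10 for DUSP6, with adjusted p of 0.0113, 4.13e-07 and 1.28e-07 in edgeR. The other 4 called there were ETV5, PHLDA1, SPRY2 and SPRY4, between -0.57 and -0.47 on the log2 scale.

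Cyclin D1, CCND1, and the ephrin receptor EPHA2 were the most abundant of the 10 and the least apart in rIL-17B replicate 2. CCND1 had 178 and 157 CPM with PBS, 89.2 in rIL-17B replicate 1 and 156 in replicate 2, and EPHA2 had 84.4 and 100.2 CPM with PBS, 67.9 in rIL-17B replicate 1 and 83.9 in replicate 2. In both genes the step from the lower PBS library to rIL-17B replicate 2 was smaller than the step between the PBS libraries. The same held for DUSP4, DUSP6, SPRY2 and ETV4, and not for the rest of the list. DUSP6 had 64.8 and 92.1 CPM with PBS against 49.6 in rIL-17B replicate 2. SPRY2 had 23.5 and 31.9 CPM with PBS against 18.7 in that library. The PBS libraries also differed from each other in this list. Every gene of it but CCND1 was lower in PBS replicate 1 than in PBS replicate 2, DUSP4 at 53.9 against 80.0 CPM. The list thus shifted together between the controls as well.

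**Figure D4:**
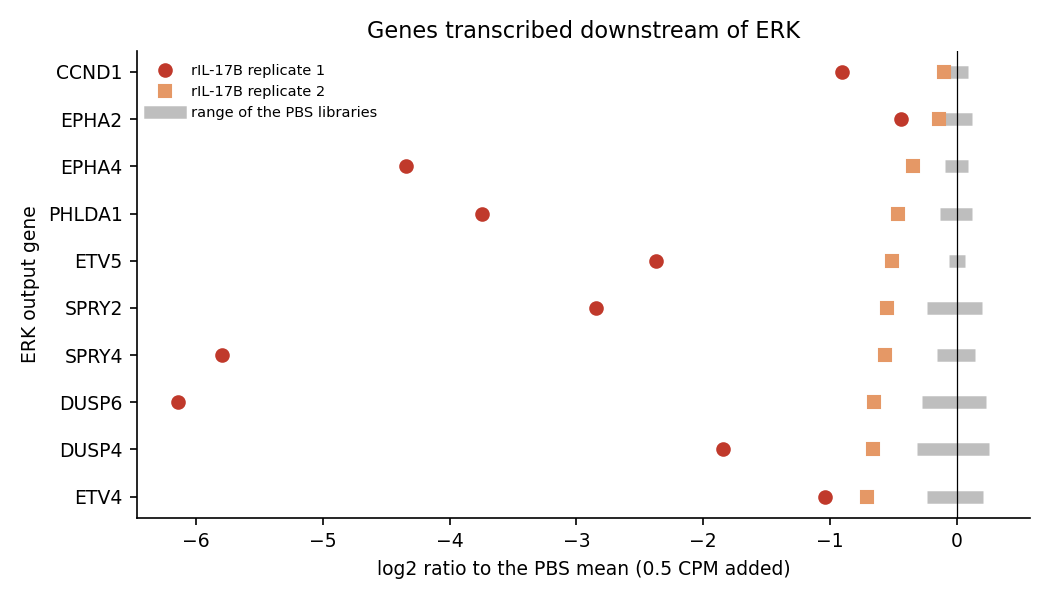
log2 ratio of CPM to the PBS mean, with 0.5 CPM added, for the 10 ERK output genes in rIL-17B replicate 1 (red circles) and replicate 2 (orange squares), with grey bars for the span of the PBS libraries. All 20 symbols lie to the left of the grey bars, with CCND1 and EPHA2 in replicate 2 at their edge.

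Negative regulators of receptor signalling, which hold SPRY2, SPRY4, DUSP4 and DUSP6 in common with the ERK output genes, numbered 22 tested and 0 called, with a median log2 fold change of -0.55. Of the 22, 16 were below and 3 above both PBS libraries in both rIL-17B libraries, against 27.5% and 31.5% of all genes. CBL, the ubiquitin ligase that sends receptors to degradation, had 68.7 and 68.9 CPM with PBS, 57.8 in rIL-17B replicate 1 and 60.4 in replicate 2. ERRFI1, an inhibitor of EGFR, had 235 and 217 CPM with PBS, 33.9 in rIL-17B replicate 1 and 203 in replicate 2, and the phosphatase PTPN1 had 68.2 and 69.1 CPM with PBS against 81.0 and 74.4 CPM with rIL-17B. Without rIL-17B replicate 1, 6 were called lower, the 4 shared genes with LRIG1 and SPRY1, where 2.3% of all genes were. LRIG1, which lowers EGFR, had 674 and 676 counts with PBS, 80 in rIL-17B replicate 1 and 597 in replicate 2.

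Sheddases release ERBB ligands from the membrane. Their list, which also holds RHBDF1 and RHBDF2 that are not such enzymes themselves, had 4 tested genes. The median log2 fold change was -0.21, with 0 called over all 4 libraries. ADAM10 had 162 CPM in each PBS library, 108 in rIL-17B replicate 1 and 161 in replicate 2, and RHBDF1 had 39.7 and 40.0 CPM with PBS, 14.4 in rIL-17B replicate 1 and 32.5 in replicate 2. Over all 11 lists, 116 of 143 genes were tested and 0 called, with 64 below and 25 above both PBS libraries in both rIL-17B libraries and a median log2 fold change of -0.36. Without rIL-17B replicate 1, 17 of 117 were called, all of them lower, against 394 lower and 110 higher of 17103 genes in all. In that fit the median log2 fold change was -0.12 over the 117 genes and -0.01 over all genes. By list it was -0.54 for the ERK output genes, -0.42 for the ERBB ligands, -0.29 for the FGF ligands, -0.25 for the co-receptors, -0.21 for the negative regulators and -0.11 for the other receptor tyrosine kinases. For the other 5 lists it lay between -0.07 and 0.04.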

How the data were processed

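RNA from HGC-27 cells was made into 4 Smart-seq2 libraries primed with oligo-dT and amplified by PCR. The authors deposited raw read counts per gene name, without normalization, and genes with 0 counts were not listed. The submitters' processing notes name Bowtie2 2.2.3, HISAT2 2.1.0, TopHat2, HTSeq 0.6.0 and hg38, with no role or order. Which annotation was counted, and whether by strand, is not given in the sources used here, so reads of genes that overlap on opposite strands cannot be told apart. Repeated names with equal counts (83 to 98 per library) were used once, and 22 to 25 date-like entries per library, 0.228% to 0.244% of counts, were left out. A missing gene was given 0 counts. CPM is the count divided by the library total, between 12888029 and 17555879, times 1000000.

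Samples were grouped by the treatment label. The test of these counts was that of edgeR 4.0.16 (R 4.3.3; TMM factors, filterByExpr, quasi-likelihood F test, Benjamini-Hochberg adjustment over 16361 genes, threshold 0.05). The SE is the size of the log2 fold change divided by the square root of F. The script was tested on simulated counts. Exon lengths are from GENCODE 29 on GRCh38. Alternatives were DESeq2 1.42.0, upper-quartile normalization, other filters, a threshold of 0.1, a replicate block and leaving out each library. The non-overlap counts under other scalings and without rIL-17B replicate 1 were added after the data were seen. Same-numbered libraries correlated by 0.0832 in their deviations from the group means. The rIL-17B deviations are set largely by replicate 1, so this value cannot exclude pairing. The main fit did not pair the libraries, and the replicate block was run as an alternative. Python 3.11.15 was used for tables.

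The receptors and the gene lists were chosen with earlier results of these data known. Named were all 10 receptors, from each list the 2 tested genes with the smallest p and the 2 with the highest CPM per kb, the nearest other receptor of each, and up to 3 leading markers per list. The genes called without rIL-17B replicate 1, and CDH1, TFF1, HGF, KIT, GSX2, FIP1L1 and further markers, were named after their values were seen. A gene that this rule names is not reported here. No protein sequence is given.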

Additional observations from a re-analysis of the deposited data

How the results depend on the processing

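With all 4 libraries, 0 genes, 0 receptors and 0 pathway genes were called in edgeR, and also with DESeq2, upper-quartile factors, every gene with a count, a minimum of 10 counts per library, a threshold of 0.1 and without either PBS library. Genes with an unadjusted p below 0.05 numbered 226 in edgeR, 190 with upper-quartile factors, 879 unfiltered, 462 with the 10-count minimum and 457 in DESeq2, and receptors numbered 0, 0, 2, 0 and 2. A replicate block also gave 0 calls in each set, with 173 genes and 1 receptor, EGFR, at an unadjusted p under 0.05, and moved the log2 fold change of PDGFRA from -1.40 to -4.32 and of KDR from -2.38 to -4.04. Leaving out 1 library gave from 0 to 9489 genes, 0 to 8 receptors and 0 to 89 pathway genes. Without rIL-17B replicate 1 the counts were 504, 3 and 17, and without rIL-17B replicate 2 they were 9489, 8 and 89. Each of these fits leaves a lone rIL-17B library, assumed to vary like the PBS pair. The log2 fold change of ERBB2, -0.08 with all 4, ran from -0.22 to 0.054 when 1 library was left out, and reversed to 0.054 without rIL-17B replicate 1. PDGFRA and KDR, with 1 and 0 counts in rIL-17B replicate 1, were not tested with the 10-count minimum. Depth is lowest for ERBB3, at 11 to 16 counts.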
